A study of Mus musculus with 6 samples.

Results

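The 9 genes described here, Dlx1, Dlx2, Dlx5, Dlx6, Gsx1, Gsx2, Lhx6, Lhx8 and Isl1, encode transcription factors of the ventral telencephalon, the subpallium. They were chosen by name, as factors that set subpallial, interneuron and striatal fate. All 9 were found among the 55471 genes of the count tables. The RNA came from E11.5 mouse embryos, from the front end of their telencephalic primordium, in 3 control libraries (genotype labelled WT, described in the protocol as DicerF/F, so carrying floxed Dicer without Cre) and 3 Rx-Dicer libraries (RxCre-DicerF/F). Dicer is the nuclease that releases mature miRNAs from their hairpin precursors. Cre stood under regulatory sequences of Rax (Rx) in a CD1 background, floxed Dicer came from a C57BL/6 background, and recombination by this Cre is described as strongest in the rostral and ventral telencephalon and weak in the neocortex at this age. Nothing in the labels tells if a library held 1 embryo or a pool, or if libraries of a group came from separate litters, so p-values measure the spread between these libraries.

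The subpallium forms as the ganglionic eminences, which bulge into the ventricle. Progenitors there express Gsx1 and Gsx2, homeobox factors that hold ventral identity against the pallial programme and act ahead of the Dlx genes. Dlx1 and Dlx2 are first made in progenitors, Dlx5 and Dlx6 mostly in the cells that leave the cycle, and all 4 drive GABAergic differentiation and migration. Within the medial ganglionic eminence, Nkx2-1 acts above the LIM homeobox genes Lhx6, needed by cortical interneurons, and Lhx8, needed by cholinergic neurons, whereas Isl1 marks striatal precursors and cholinergic neurons. Several of these factors also act outside the telencephalon, the Dlx genes and Lhx6 and Lhx8 in the mesenchyme of the pharyngeal arches, Isl1 in cranial sensory and motor neurons, and many of them in the hypothalamus.

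The libraries held 34471501 to 48373468 counts on genes, with overlapping totals between genotypes. Dicer1 had 6355, 7070 and 6270 normalised counts in control libraries 1, 2 and 3 and 4777, 7002 and 4644 in Rx-Dicer libraries 1, 2 and 3 (counts divided by DESeq2 size factors, a scale used below unless another is named). The library labelled Rx-Dicer 2 therefore lay within the control range for the targeted gene, while the other Rx-Dicer libraries lay below it. Gene totals take in exons outside the floxed segment, so they check the labels only in part. A call below means a DESeq2 adjusted p under 0.05, over all genes, with a log2 fold change of over 0.32 in size, the study's fold minimum.

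Among the 9 factors, Lhx6 and Lhx8 were higher in Rx-Dicer libraries and the other 7 were not called. Among all 17127 genes tested, 2.93% were called, and 1.75% were called higher. Lhx6 and Lhx8 were also the 2 members whose 3 Rx-Dicer values all lay above the 3 control values, a pattern found for 8.55% of genes tested, and no member had the opposite one. The estimated log2 fold change was positive for 8 of the 9, with a median of 0.20 against -0.001 over all genes tested. These 8 include all the Dlx genes, which shared a pattern over libraries and so are not separate observations. The Dlx estimates turned negative when the library labelled Rx-Dicer 2 was left out. With edgeR's quasi-likelihood test none of the 9 passed the adjusted threshold, where 0.0446% of 17954 genes did (8 genes). Unadjusted edgeR p was under 0.05 for 3 members (Lhx6, Lhx8 and Gsx1) and for 2313 genes in all. The 2 calls therefore rest on the DESeq2 test.

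**Figure D1:**
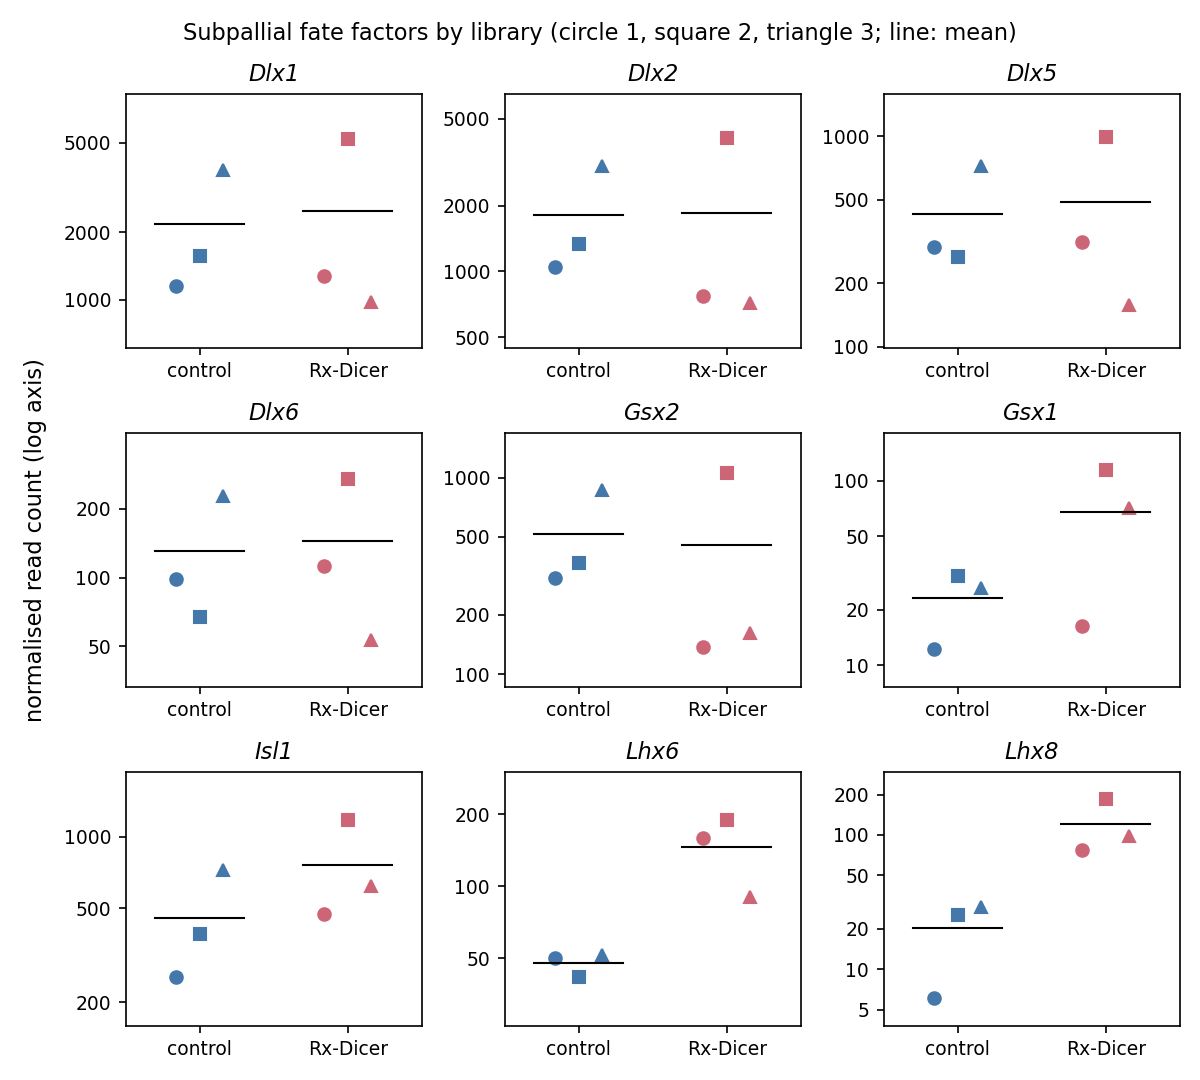
Normalised read counts (log axis, scaled for each gene) of the 9 factors in control libraries (blue) and Rx-Dicer libraries (red), with the replicate number as the symbol and the group mean as a line. The Lhx6 and Lhx8 values of the genotypes do not overlap, while the Dlx genes and Gsx2 are highest in the library labelled Rx-Dicer 2 and in control 3.

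Lhx6 (ENSMUSG00000026890, GRCm38 chromosome 2, 36081953 to 36105408, minus strand), the LIM homeobox factor of medial ganglionic eminence interneurons, had 50.1, 41.8 and 51.7 normalised counts in control libraries 1, 2 and 3 and 159, 188 and 90.3 in Rx-Dicer libraries 1, 2 and 3. The controls were close together, with a highest value 1.24 times the lowest, and every Rx-Dicer library stood above them. Mean values were 47.8 ± 5.3 in controls against 146 ± 50 in Rx-Dicer (SD, n = 3 each). The log2 fold change of Lhx6 was 1.61 ± 0.34 (SE, DESeq2 adjusted p = 0.00044, edgeR quasi-likelihood adjusted p = 0.133). When the library labelled Rx-Dicer 2 was left out, Lhx6 still passed at 1.39 (DESeq2 adjusted p = 0.0147). A small annotated gene, Gm27953, overlaps Lhx6 on the same strand, and reads over both were not counted for either.

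Lhx8 (ENSMUSG00000096225, chromosome 3, 154306294 to 154330659, minus strand), the cholinergic relative of Lhx6, had 6.11, 25.5 and 29.1 normalised counts in the controls against 77.2, 185 and 98.9 in the Rx-Dicer libraries, in the order of their numbers. Control 1 was the lowest, with 5 reads, and all Rx-Dicer libraries lay above the highest control. The log2 fold change was 2.55 ± 0.49 (SE), the largest estimate among the 9 genes, with a DESeq2 adjusted p of 7.07e-05 and an edgeR quasi-likelihood adjusted p of 0.156. Leaving out control 1 gave 2.14 (DESeq2 adjusted p = 0.000943), and leaving out the library labelled Rx-Dicer 2 gave 2.11 (DESeq2 adjusted p = 0.0218). Both genes kept their direction without any single library.

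The bases upstream of the 2 called genes are shown because these are the members that differed by genotype. They come from RefSeq's promoter table (GRCm38.p6), which held 9 promoters for 7 of the 9 members, and end where the annotated transcripts begin. Capitals mark the word CAGCTG, an E-box, the kind of word read by basic helix-loop-helix factors. Lhx6 (chr2:36105409-36105658, minus strand) has 2 copies in 250 bases and Lhx8 (chr3:154330660-154330810, minus strand) has 0 in 151 bases.
Lhx6 upstream: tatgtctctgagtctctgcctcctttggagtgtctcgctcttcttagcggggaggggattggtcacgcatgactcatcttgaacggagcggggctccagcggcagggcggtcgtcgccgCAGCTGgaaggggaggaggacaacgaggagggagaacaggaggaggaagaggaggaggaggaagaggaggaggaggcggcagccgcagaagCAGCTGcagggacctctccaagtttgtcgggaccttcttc
Lhx8 upstream: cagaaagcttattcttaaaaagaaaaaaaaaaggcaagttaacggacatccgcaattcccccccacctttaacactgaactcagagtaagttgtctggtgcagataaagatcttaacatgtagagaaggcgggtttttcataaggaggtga

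In windows of 300 bases (250 before and 50 after the start), CAGCTG was present in 2 of the 9 member promoters (1 of the 3 of Lhx6, and that of Isl1) and in 16.3% of all 32851 promoters. TAATTA, the core word of many homeodomain sites, was present in 0 of the 9 and in 5.29% of all promoters. The Gli-type word TGGGTGGTC was present in 0 of the 9 and in 0.253% of all. Both strands were searched, CAGCTG and TAATTA read the same on both, and a word present or missing in these windows is a description of letters only.

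Nkx2-1, the factor above Lhx6 and Lhx8 in the medial ganglionic eminence, was likewise higher in each Rx-Dicer library than in any control. It had 3.66, 51.9 and 192 normalised counts in control libraries 1, 2 and 3 and 682, 1882 and 1307 in the Rx-Dicer libraries. The controls themselves spanned 52.3-fold. Its log2 fold change of 3.97 ± 1.26 (SE) came with a DESeq2 adjusted p of 0.0549 and an edgeR quasi-likelihood adjusted p of 0.171, so Nkx2-1 was not called. It passed without control 1 (3.40, DESeq2 adjusted p = 0.00155) and without control 3 (5.53, DESeq2 adjusted p = 0.000982). Without control 2 or any single Rx-Dicer library it did not pass (DESeq2 adjusted p from 0.0889 to 0.330). Per Nkx2-1 read, Lhx6 plus Lhx8 was lower in Rx-Dicer libraries: the log2 ratio was -1.53, -2.33 and -2.79 there and 3.94, 0.37 and -1.25 in controls. The control 1 ratio rests on 3 Nkx2-1 reads.

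The 4 Dlx genes showed no difference between genotypes that could be told from the spread between libraries. They lie in 2 convergently transcribed pairs, Dlx1 and Dlx2 on chromosome 2 (9426 bases apart) and Dlx6 and Dlx5 on chromosome 6 (9236 bases apart). Dlx1 had 1157, 1568 and 3766 normalised counts in control libraries 1, 2 and 3 and 1269, 5161 and 980 in Rx-Dicer libraries 1, 2 and 3. The library labelled Rx-Dicer 2 and control 3 were high, the other 4 libraries were low, and the genotypes overlapped. Dlx2 gave 1048, 1336 and 3044 in controls against 771, 4079 and 717 in Rx-Dicer. Dlx5 gave 298, 266 and 718 against 314, 995 and 159. Dlx6 gave 98.9, 67.2 and 227 against 112, 270 and 53.2. In each of the 4 genes the same 2 libraries were highest and Rx-Dicer 3 was lowest, with 5.07 to 6.27 times between the extremes.

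The log2 fold changes of the Dlx genes were 0.19 ± 0.88 for Dlx1, 0.04 ± 0.90 for Dlx2, 0.20 ± 0.84 for Dlx5 and 0.15 ± 0.81 for Dlx6 (SE, DESeq2 adjusted p from 0.976 to 0.995). Their 95% intervals run from -1.53 to 1.92 for Dlx1 and from -1.72 to 1.80 for Dlx2. Changes within these bounds are not excluded by these libraries. These standard errors lie between percentiles 98.9 and 99.1 of genes with a mean of at least 50 normalised counts, whose median is 0.15. The estimates turned negative for all 4 genes without the library labelled Rx-Dicer 2 (from -1.28 for Dlx2 to -0.66 for Dlx6), still not called. The direction of the Dlx estimates thus depends on which libraries are included.

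**Figure D2:**
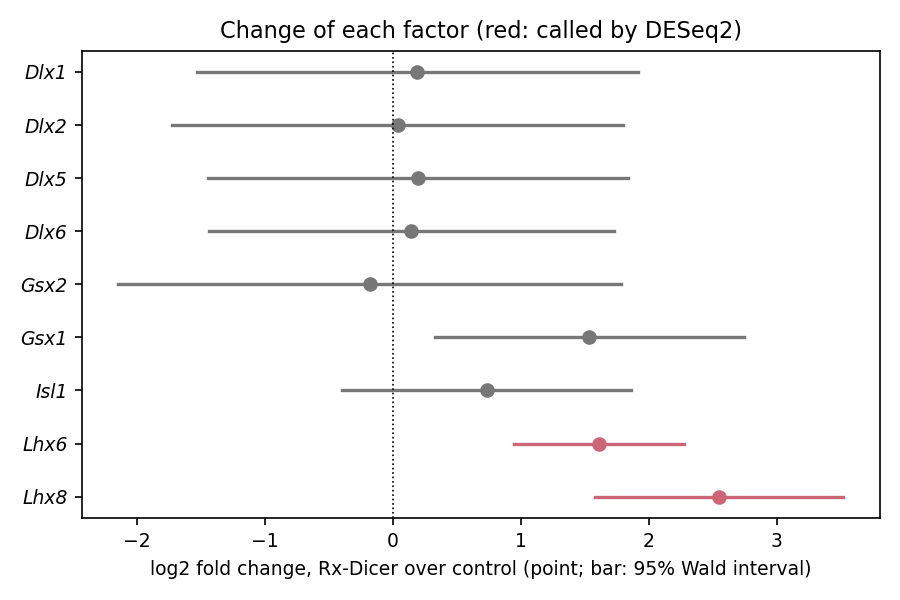
Log2 fold change (Rx-Dicer over control) of the 9 factors, as points with 95% Wald intervals from DESeq2, red where called. Lhx6 at 1.61 and Lhx8 at 2.55 are called, and the intervals of the Dlx genes and Gsx2 span over 3 log2 units.

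Gsx2 (chromosome 5, 75075601 to 75077893, plus strand), the progenitor factor of the lateral eminence, shared the library order of the Dlx genes only in part. It had 310, 369 and 865 normalised counts in controls against 138, 1062 and 162 in Rx-Dicer libraries. The library labelled Rx-Dicer 2 held the highest value of all 6, and the other 2 Rx-Dicer libraries held the lowest. The log2 fold change was -0.18 ± 1.00 (SE, DESeq2 adjusted p = 0.983). Leaving out the library labelled Rx-Dicer 2, and with it this highest value, moved Gsx2 to -1.78 (DESeq2 adjusted p = 0.00228). Leaving out control 3 moved it to 0.42, and Gsx2 was not called without any other single library.

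Gsx1 (chromosome 5, 147188696 to 147190947, plus strand), its relative, was among the lowest of the 9. It had 12.2, 30.6 and 26.3 normalised counts in controls against 16.3, 114 and 71.3 in Rx-Dicer. Rx-Dicer 1 lay inside the control range and the other Rx-Dicer libraries above it. The log2 fold change of 1.54 ± 0.62 (SE) did not pass (DESeq2 adjusted p = 0.183, edgeR quasi-likelihood adjusted p = 0.382), and without Rx-Dicer 1 it was 1.99 (DESeq2 adjusted p = 0.00806). Leaving out the library labelled Rx-Dicer 2 instead gave 0.92 (DESeq2 adjusted p = 0.738). The log2 ratio of Gsx1 to Gsx2 reads was -3.08, -3.22 and -1.18 in Rx-Dicer libraries and -4.67, -3.59 and -5.04 in controls, without overlap. This ratio rests on 10 to 112 Gsx1 reads a library and was chosen with the levels known. How often other gene pairs separate in this way was not counted.

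Isl1 (chromosome 13, 116298281 to 116309689, minus strand), the LIM homeobox factor of striatal precursors, had 255, 389 and 724 normalised counts in controls against 473, 1182 and 619 in Rx-Dicer. Its groups overlapped through control 3. The log2 fold change of 0.73 ± 0.58 (SE) was not called (DESeq2 adjusted p = 0.699), and without control 3 it was 1.23 with a DESeq2 adjusted p of 0.0439. Isl1 did not pass without any other single library, and without the one labelled Rx-Dicer 2 it was 0.26 (DESeq2 adjusted p = 0.919). Genes of cranial sensory neurons, which also express Isl1, summed to 1123 to 1523 normalised counts in controls and 895 to 1898 in Rx-Dicer, where the library labelled Rx-Dicer 2, highest in Isl1, was the lowest. One of the 8 of them tested, the receptor gene Ret, was called higher (14.7, 5.09 and 16.0 against 172, 43.8 and 151, log2 fold change 3.36, DESeq2 adjusted p = 4.87e-07).

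Levels between genes were compared as CPM (counts per 1000000 counts of the library) per kilobase of exon. The means over 6 libraries fell in the order Dlx2 (15.4), Dlx1 (10.3), Gsx2 (6.97), Dlx5 (4.86), Isl1 (3.66), Dlx6 (1.39), Lhx8 (0.67), Gsx1 (0.61) and Lhx6 (0.48). The ranges of all neighbours in this order overlapped, from 5.76 to 35.1 for Dlx2 and from 4.17 to 23.5 for Dlx1, for example. Lhx6 stood at 0.23 ± 0.03 in controls against 0.73 ± 0.27 in Rx-Dicer (SD, n = 3 each), below every Dlx gene in both. With coding length in place of exon length, 2 of the 9 genes kept their place, Dlx1 (72.6) passed Dlx2 (44.1), and Lhx6 (1.88), Lhx8 (1.49) and Gsx1 (1.37) were still the lowest 3.

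**Figure D3:**
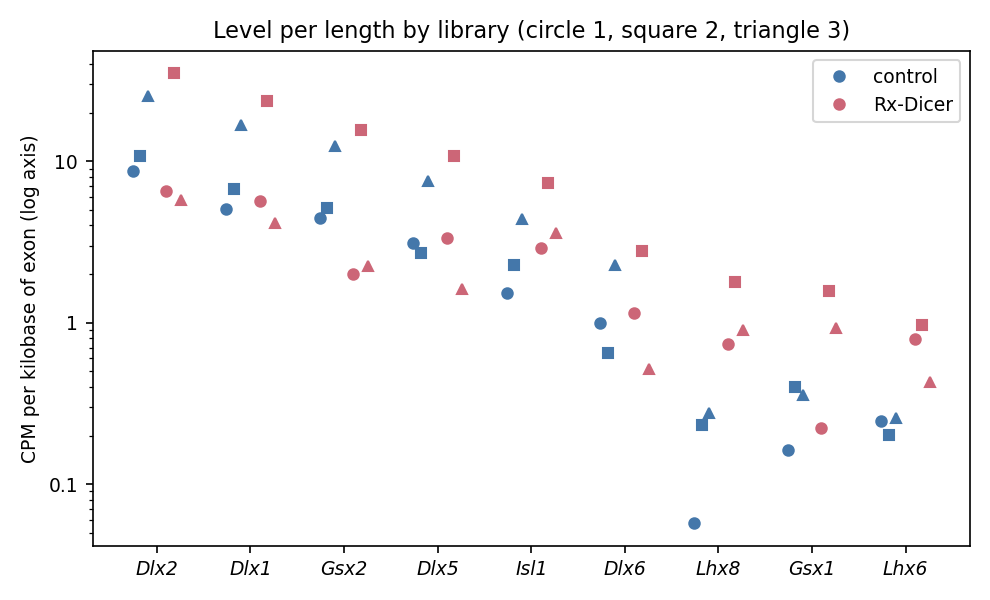
CPM per kilobase of exon (log axis) of each factor in control (blue) and Rx-Dicer (red) libraries, genes in falling order of their mean. Dlx2 and Dlx1 are highest, at means of 15.4 and 10.3, and Lhx8, Gsx1 and Lhx6 are lowest, at 0.67 or less.

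Ratios within a library do not depend on scaling, and they set Lhx6 and Lhx8 against the Dlx genes, which mark the subpallium as a whole. Per 1000 reads of Dlx1, Dlx2, Dlx5 and Dlx6 together, Lhx6 plus Lhx8 had 21.6, 20.8 and 10.4 reads in control libraries 1, 2 and 3 and 95.6, 35.6 and 99.1 in Rx-Dicer libraries 1, 2 and 3. All Rx-Dicer ratios were above all control ratios, the library labelled Rx-Dicer 2 being the nearest to them. For Lhx6 alone the ratios overlapped, since the log2 ratio of that library (-5.80) lay below that of control 1 (-5.70). The mean log2 ratio was -5.90 ± 0.59 in controls against -3.84 ± 0.84 in Rx-Dicer (SD, n = 3 each), a difference of 2.06, and it stayed between 1.72 and 2.54 when any library was left out.

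**Figure D4:**
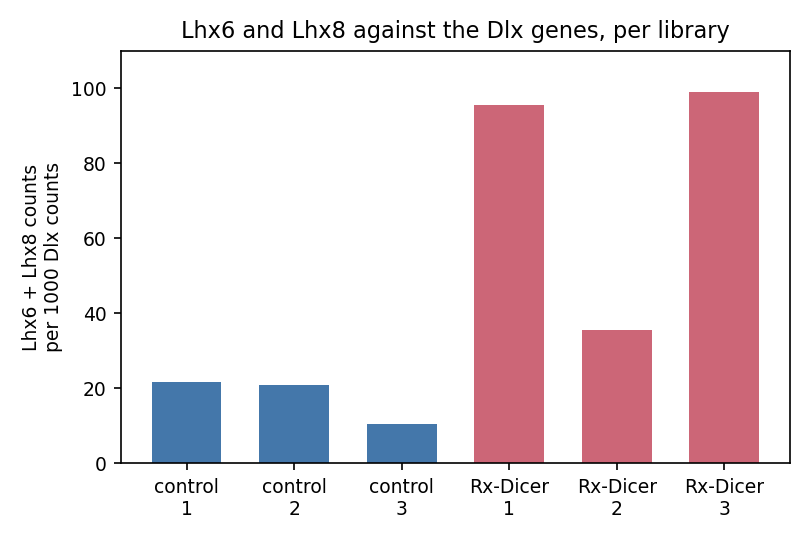
Reads of Lhx6 plus Lhx8 per 1000 reads of the 4 Dlx genes in each control (blue) and Rx-Dicer (red) library. Controls reach at most 21.6 and Rx-Dicer libraries start at 35.6.

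Each on its own over the Dlx sum, 2 of the 5 other members did not overlap between genotypes, against 0.293% of the 17094 genes tested with a read in every library. That share is taken over genes of any pattern, and Gsx2 had an r of 0.92 to the Dlx profile, so it is no like-for-like background for Gsx2. Lhx8 was higher (mean log2 ratio -7.93 ± 0.88 in controls against -5.03 ± 0.78 in Rx-Dicer, SD, n = 3 each). Gsx2 was lower (-3.12 ± 0.05 in controls against -3.68 ± 0.44 in Rx-Dicer). The controls held Gsx2 and the Dlx genes in nearly the same proportion despite their different levels, and each Rx-Dicer library had less Gsx2 per Dlx read. Within the family, the log2 ratio of Dlx2 to Dlx1 was -0.14, -0.23 and -0.31 in controls against -0.72, -0.34 and -0.45 in Rx-Dicer, again without overlap. The share above does not apply to this pair, and no share over other gene pairs was taken. The log2 ratio of Dlx6 to Dlx5 overlapped, with means of -1.74 ± 0.21 and -1.65 ± 0.21 (SD, n = 3 each). The ratios were chosen with the levels known and show unequal change between genes, not which of the 2 moved.

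The 2 main non-coding RNAs at the Dlx clusters had the same highest and lowest libraries as the Dlx genes. Dlx1as, a non-coding RNA antisense to Dlx1 (chromosome 2, 71516454 to 71537891, minus strand), had 170, 268 and 678 normalised counts in controls against 91.8, 970 and 47.5 in Rx-Dicer. Dlx6os1, also called Evf2, which runs antisense through Dlx6 (chromosome 6, 6820189 to 6871592, minus strand), had 318, 576 and 1398 in controls against 409, 2379 and 179 in Rx-Dicer. Both were highest in the library labelled Rx-Dicer 2, then in control 3, and lowest in Rx-Dicer 3. The range was wider than for the coding neighbours, 20.4-fold for Dlx1as and 13.3-fold for Dlx6os1. Dlx6os2, inside Dlx6os1 on the same strand, stayed between 2.04 and 44.8. None of these 3 was called, and counting used strand, so they share no reads with Dlx1 or Dlx6.

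Sp9, a zinc finger gene of subpallial neurons, had 175, 240 and 569 normalised counts in controls against 155, 817 and 81.8 in Rx-Dicer. Gad1, which makes GABA, had 101, 194 and 422 against 294, 817 and 98.9. Gad2, its paralogue, had 214, 383 and 895 against 922, 1663 and 250. Each was highest in the library labelled Rx-Dicer 2 and none was called, but Gad2 was second in Rx-Dicer 1 and lowest in control 1, unlike the Dlx genes. Pallial genes went the other way: Emx1, of cortical progenitors, had 4764, 5286 and 2156 in controls against 4291, 921 and 3615 in Rx-Dicer, and the proneural gene Neurog2 had 6177, 6080 and 2903 against 3323, 1485 and 2752. Emx1 and Neurog2 were lowest in the library labelled Rx-Dicer 2, where the Dlx genes were highest. In bulk tissue, fewer cells of a type and less RNA per cell cannot be told apart, and how much of either domain a dissected piece held was not recorded in the sources used here.

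**Figure D5:**
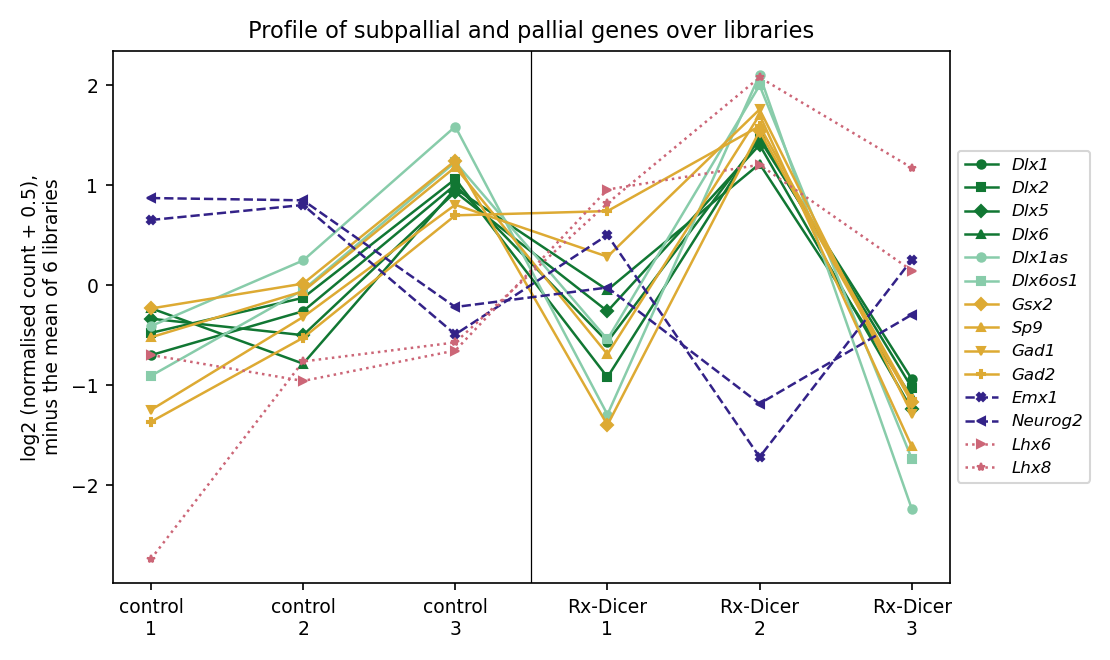
Log2 normalised counts (pseudocount 0.5) minus each gene's mean over the 6 libraries, for the Dlx genes, their non-coding neighbours, Gsx2, Sp9, Gad1 and Gad2 (solid), the pallial genes Emx1 and Neurog2 (dashed) and Lhx6 and Lhx8 (dotted). The solid lines are highest in the library labelled Rx-Dicer 2 and, except Gad2, next highest in control 3, the dashed lines are lowest in the former and dip in the latter, and the dotted lines are higher in every Rx-Dicer library than in any control.

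Pearson's r over the 6 libraries, as a description over genotypes and libraries at once, put numbers to these patterns. To the mean standardised profile of the 4 Dlx genes, r was 0.98 for Sp9 and Dlx6os1, 0.94 for Dlx1as, 0.92 for Gsx2, 0.69 for Isl1, and 0.26 for Lhx6 and for Lhx8. Among 14165 genes with a mean of at least 50 normalised counts, the 5 most like the Dlx profile were Exd2 (0.99), Epha3 (0.99), Il18 (0.99), Rbm5 (0.98) and Sp9 (0.98). To the mean profile of Lhx6 and Lhx8 the closest were Dock9, Sybu, Mia3, Pou2f1 and Atf7 (all 0.99 or above), while Nkx2-1 reached 0.92, Isl1 0.76 and Neurog2 -0.86. With 6 libraries many genes reach such values: 37 and 42 genes had the same rank order as the first and second profile.

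Of the 16 other subpallial progenitor and eminence genes tested, 5 were called higher, 0 lower, with a median log2 fold change of 0.51 against -0.001 over all genes. Six3 and Otx2, homeobox genes of the rostral forebrain, had log2 fold changes of 1.27 (DESeq2 adjusted p = 6.27e-06) and 0.78 (DESeq2 adjusted p = 0.0311). Vax1, a homeobox gene of the ventral midline and septum, had 176, 225 and 312 normalised counts in controls against 429, 662 and 420 (1.08, DESeq2 adjusted p = 0.00261). Nkx6-2, of the sulcus between the eminences, had 1.22, 9.17 and 33.8 against 35.2, 98.8 and 104 (2.40, DESeq2 adjusted p = 0.0308). Dlk1, a non-canonical Notch ligand, had 3079, 5017 and 6455 against 9235, 12002 and 12570 (1.22, DESeq2 adjusted p = 1.97e-05). Six3, Vax1, Nkx6-2 and Dlk1, like Lhx6 and Lhx8, did not overlap between genotypes, whereas for Otx2 Rx-Dicer 1 (2701) lay below control 1 (2802). Sp8, a zinc finger gene, was not called (log2 fold change 0.33).

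Among 19 interneuron and GABA genes tested, 1 was called, the transcription factor gene Maf (998, 564 and 941 against 1276, 1208 and 1473, log2 fold change 0.66, DESeq2 adjusted p = 0.0465), and the median was 0.05. Of 15 striatal and cholinergic genes tested, 1 was called, Six3, which the first list also holds. Bcl11b (log2 fold change -0.35) and Ebf1 (-0.10), both of differentiating striatal neurons, were not called.

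In the Hedgehog pathway, which sets ventral identity, 2 of 10 genes tested were called higher and 0 lower, with a median of 0.05. Shh, the ligand and 1 of the 2, had 18.3, 33.6 and 47.9 normalised counts in controls against 112, 570 and 201 in Rx-Dicer, a log2 fold change of 3.14 ± 0.77 (SE, DESeq2 adjusted p = 0.00518). The receptor gene Ptch1 (0.86, DESeq2 adjusted p = 0.345) and the effector gene Gli1 (0.70, DESeq2 adjusted p = 0.803) were not called. As with the members, edgeR called none of these list genes.

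Of 14 pallial genes tested, 2 were called lower and 0 higher, with a median of -0.35. Pax6, which opposes Gsx2 at the boundary of pallium and subpallium, had 7210, 6927 and 6726 normalised counts in controls against 5064, 4749 and 5629 in Rx-Dicer (log2 fold change -0.43, DESeq2 adjusted p = 0.0127). Eomes, of intermediate progenitors, had 5752, 5499 and 4111 against 3273, 3120 and 3835 (-0.59, DESeq2 adjusted p = 0.0137). The 3 Rx-Dicer values of both genes lay below the 3 controls. Within each genotype both were lowest in the libraries where the Dlx genes were highest, the library labelled Rx-Dicer 2 and control 3, as Emx1 was.

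Other tissues that a dissected piece could hold were followed through their markers. Hypothalamic genes, a list that includes Nkx2-1, summed to 1566 to 1961 normalised counts in controls and 3316 to 4769 in Rx-Dicer, without overlap. Fezf1 made up most of the sum in each library, and Nkx2-1 (682, 1882 and 1307) was the next largest part in Rx-Dicer libraries. The sums therefore say little of the other genes of the list. Of 9 tested, 4 were called higher (Otp, Fezf1, Hmx3 and Bsx) and Pomc was called lower, and no gene of the list was at 0 in all libraries. Otp had 69.5, 14.3 and 67.5 and Bsx 188, 14.3 and 188 in Rx-Dicer libraries 1, 2 and 3, against at most 7.52 and 6.11 in controls. Fezf1, the most abundant of the 4, had 2043, 2646 and 2620 there against 1618, 1276 and 1524. Among Rx-Dicer libraries the one labelled Rx-Dicer 2, highest in Lhx6, Lhx8 and Nkx2-1, was thus lowest in Otp and Bsx, and in Fezf1 it was close to Rx-Dicer 3. It was also lowest of them in Hmx3 (10.2 against 48.9 and 31.4), Rax and Six6, and lay between the others in Sim1 and Pomc. The median log2 fold change of the 9 was 2.24, against -0.001 over all genes. The part of hypothalamic tissue in the Lhx6, Lhx8 and Isl1 values was not tested.

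Head mesenchyme and pharyngeal arch genes summed to 38140 to 86621 normalised counts in controls and 57774 to 73698 in Rx-Dicer, and 1 of 16 tested, Foxd1, was called higher (log2 fold change 0.70), with a median of 0.11. Pax9 and Pitx1, defining genes of the oral region of the arches where Lhx6 and Lhx8 are also made, had 49.7 and 92.6 in Rx-Dicer 1 and at most 3.80 in the other Rx-Dicer libraries. Other genes of the list, Foxd1 (945), Foxc2 (446), Msx1 (3290) and Osr2 (13.2), had their highest value of all 6 libraries in the one labelled Rx-Dicer 2. The part of arch and head mesenchyme in the Lhx6 and Lhx8 values was not tested. Olfactory placode and surface ectoderm genes had 0 calls of 13 tested, with sums of 3311 to 6345 in controls against 2635 to 5338 in Rx-Dicer, and retina and optic vesicle genes 0 of 6, with sums of 528 to 1102 and 327 to 1117. Dct made up most of the retina sum in every library except that labelled Rx-Dicer 2, so these sums say little of the other genes. Among those, Pax2 (67.2, 1.02 and 7.52 against 145, 79.5 and 87.5) was higher in each Rx-Dicer library than in any control, and Pmel was lower.

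Seed matches to miRNAs were looked for in the longest annotated 3′ UTR of each gene, since Dicer makes mature miRNAs. The 2 families searched, let-7 and miR-9, are abundant in the embryonic brain, and their mature sequences (RefSeq, GRCm38.p6) are shown with the seed, bases 2 to 8, in capitals.
let-7a-5p: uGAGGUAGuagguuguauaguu
miR-9-5p: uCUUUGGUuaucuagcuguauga

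The 7-base match to the let-7 seed, CTACCTC, was present in 0 of the 9 members and in 10.7% of 14052 tested genes with a 3′ UTR. The match to the miR-9 seed, ACCAAAG, was present in 1 of the 9 and in 14.2% of all, with median 3′ UTR lengths of 1112 and 1216 bases. That single match lies in Gsx2, at base 365 of 618 of its 3′ UTR (chr5:75077363-75077387, plus strand, GRCm38), and is shown with the match in capitals. The called genes Lhx6 (2102 bases of 3′ UTR) and Lhx8 (665 bases) hold neither word.
Gsx2 site: agcacagggACCAAAGttctagtcc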

How the data were processed

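Per the labels and the study's methods, the authors trimmed paired reads with Trim Galore 0.6.5, aligned them to GRCm38.p6 with HISAT2 and deposited raw read counts per Ensembl gene from HTSeq 0.12.4 (union mode, reverse strand). The 2 files of each sample (12 in all) differed by little more than counting noise (chi-square per degree of freedom 1.13 to 1.52, against 22.5 to 32.6 between samples of a group), so they were treated as repeat runs and summed. Rows that name no gene, 24.9% to 31.0% of all tallies, were left out. Total counts of 34471501 to 48373468 put the floor of 3 counts at 0.0620 to 0.0870 CPM, counting error only.

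Genotypes were compared with DESeq2 1.42.0 (R 4.3.3), the study's tool, on all genes: Wald test, median-of-ratios size factors, genotype as the only term, unshrunken log2 fold change, Benjamini-Hochberg adjustment. edgeR 4.0.16 (quasi-likelihood test, TMM factors, at least 10 counts in at least 3 samples) was the first alternative. Scripts were tested on simulated data. Intervals are 1.96 SE wide on each side. Lengths and 3′ UTRs came from GENCODE vM21.

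The members and gene lists were chosen with earlier results of these data known. Named were all members, Dicer1, every list gene called, the Dlx non-coding neighbours, a fixed set of pathway and pallial genes, and the 5 genes nearest each profile. Values of 3 of these genes are not reported here, and they stay in the counts. Gm27953, Pax9, Pitx1, Foxc2, Msx1 and Osr2 were chosen after their values were seen. Alternatives were other scalings, filters, thresholds, each file alone, the replicate number as a block and leaving out each sample. The Dlx level as a covariate was added after the data had been seen.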

Additional observations from a re-analysis of the deposited data

How the results depend on the processing

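Lhx6 and Lhx8 kept their direction in all 25 alternatives each and were called in the 17 that used DESeq2, with log2 fold changes of 1.38 to 1.87 and 2.09 to 2.91 over all 25. They missed the threshold in the 8 edgeR fits (adjusted p up to 0.348 and 0.366), so the number of members called was 0 with edgeR and 2 or 3 otherwise. List genes called numbered 17, against 0 with edgeR and 10 with a fold minimum of 2. Leaving out each sample gave 10 to 21, with the low values without control 2 (10) and without Rx-Dicer 3 (11). Over all genes, 502 were called, against 8 with edgeR, 322 without independent filtering, 122 with a fold minimum of 2, 286 without control 2 and 309 without Rx-Dicer 3. The Dlx level as a covariate, added after the data had been seen, gave 818 calls and called Isl1 (0.80, DESeq2 adjusted p = 0.0405) and Nkx2-1 (4.51, DESeq2 adjusted p = 0.00926) beside Lhx6 and Lhx8, not Gsx1 or Gsx2. Nkx2-1 also passed with a low-count filter (DESeq2 adjusted p = 0.0456) and from the second file alone (0.0324).

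Same-numbered samples of the genotypes correlated at 0.29, -0.01 and -0.27, and differently numbered ones at -0.27 to 0.31. The paper compared mutants with control littermates. So few values cannot tell whether the numbers pair the samples by litter. With the replicate block, DESeq2 called 314 genes and the same number of members, 2, and edgeR called 20 genes, 2 list genes and 0 members. Under the block, log2 fold changes turned negative for Dlx1 (-0.0084), Dlx2 (-0.32) and Dlx5 (-0.043) in DESeq2 and for Dlx2 (-0.31) and Dlx5 (-0.027) in edgeR, and Nkx2-1 passed at 5.08 in DESeq2.

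Dlx6 turned negative from the first file alone (-0.045). Leaving out each sample moved Dlx1 between -0.94 and 0.86, Dlx2 between -1.28 and 0.64, Dlx5 between -0.85 and 0.80, Dlx6 between -0.66 and 0.81, and Gsx2 between -1.78 and 0.42, each lowest without the library labelled Rx-Dicer 2 and highest without control 3. With coding length, 2 of the 9 members kept their place in the order of levels. By Spearman's rho, 2 of the 5 genes nearest the Dlx profile and 4 of the 5 nearest that of Lhx6 and Lhx8 stayed among the nearest. The cause of these changes was not tested. With 3 libraries a group and a spread of 5-fold or more in Dlx level, moderate changes of the Dlx genes and Gsx2 could not be resolved.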
